A study of Mus musculus with 8 samples.

Results

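The passage from late meiotic prophase to the round spermatid was examined in germ cells that lack HR6B, the ubiquitin-conjugating enzyme encoded by Ube2b. The comparison sets the 2 arrays of Hr6b-/- round spermatids against the 2 arrays of Hr6b-/- late spermatocytes, and all 45037 probe sets other than the array's own controls were followed, which stand for 18193 genes. The 4 knockout arrays belong to a set of 8, and 2 arrays of Hr6b+/+ spermatids and 2 of Hr6b+/+ spermatocytes served as the reference. All cells came from the testes of mice of 4 to 5 weeks on an FVB background, in which the knockout males carried the null allele in every cell and their X-linked relative Ube2a (HR6A) intact. Testes were dissociated with collagenase and trypsin, and cells were separated by sedimentation at unit gravity (StaPut) and then on Percoll, so each array holds a fraction enriched for a cell type and not a sorted population. Total RNA was hybridised to Affymetrix Mouse Genome 430 2.0 arrays, 1 biotin-labelled sample an array. The labels call the 2 arrays of a group replicates without saying whether they came from separate mice or pools, so no p-value here reflects more than the spread between arrays.

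In late prophase spermatocytes the homologous chromosomes are held together by the synaptonemal complex, recombination is completed, and the X and Y chromosomes are silenced in the XY body. The meiotic divisions that follow give haploid round spermatids, which build the acrosome and the flagellum and later exchange histones for transition proteins and protamines. Transcripts made in spermatocytes may persist into spermatids, and other genes are first transcribed after meiosis, often under the transcription factor CREM. HR6B, with HR6A, attaches ubiquitin to histones and to other proteins in DNA repair, and males without HR6B are infertile.

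Signal below means the deposited log2 value put back on the linear scale, given for replicate 1 and then replicate 2, and a gene is represented by its probe set with the highest mean over the 8 arrays. A log2 difference is spermatid minus spermatocyte, with the standard error (SE) of the limma model, and a gene was said to rise or fall when the Benjamini-Hochberg adjusted p was under 0.05. Between 33.2% and 35.4% of probe sets had a signal of 100 or more on an array, and replicate arrays correlated at r = 0.995 to 0.997 over probe sets, which are not independent. The marker content of the fractions differed. The summed signal of 24 round spermatid markers was 47975 and 37202 on the knockout spermatocyte arrays against 19033 and 13657 on the wild type ones, and it was 325012 and 327994 on the knockout spermatid arrays against 266383 and 272188 in wild type. Of these 24 genes, 23 had a signal of 100 or more on both knockout spermatocyte arrays and 16 on both wild type spermatocyte arrays. Thus spermatid transcripts were already present on the knockout spermatocyte arrays at a higher level than in wild type, and their part in each difference below was not tested. In such bulk fractions fewer cells of a type and less RNA per cell cannot be told apart.

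Ube2b was reduced on all 4 knockout arrays on its stronger pair of probe sets but was not absent. Its strongest probe set had signals of 833 and 824 in knockout spermatocytes and 951 and 1061 in knockout spermatids, against 2855 and 3349 in wild type spermatocytes and 4600 and 4612 in wild type spermatids. The knockout and wild type arrays did not overlap, and the knockout was lower by a log2 difference of -1.90 (adjusted p = 0.000659) in spermatocytes and -2.20 (adjusted p = 4.51e-05) in spermatids. Where the probes lie relative to the disrupted part of the gene was not examined here. From spermatocyte to spermatid this probe set did not pass the test in the knockout (log2 difference 0.28, SE 0.12, adjusted p = 0.0699), although it did after cyclic loess, quantile normalization, centring on equal medians or a filter on low signals. The other probe set of the pair fell from 421 and 417 to 95.4 and 144 (log2 difference -1.84). A further 2 weak ones did not differ between genotypes beyond the spread in spermatocytes (knockout minus wild type 0.29 and -0.13, adjusted p = 0.636 and 0.868). In spermatids both were lower in the knockout (-0.62 and -0.73, adjusted p = 0.0447 and 0.0169). From spermatocyte to spermatid both also fell in the knockout (-0.67 and -0.51). The X-linked Ube2a ran the other way: it was near background in knockout spermatocytes, at 75.8 and 73.4, and reached 2403 and 2383 in knockout spermatids, a log2 difference of 5.00 (SE 0.14, adjusted p = 3.51e-09). In wild type Ube2a went from 65.6 and 50.8 to 2218 and 2330, and the change did not differ between genotypes beyond the spread (difference of the changes -0.30, SE 0.19, adjusted p = 0.406).

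The transition involved most of the transcripts measured. In the knockout 7574 genes rose (41.6% of 18193) and 5651 fell (31.1%), and the median log2 difference over all genes was 0.21. A change of 4-fold or more was seen for 1633 genes that rose and 1712 that fell. In wild type 6139 genes rose (33.7%) and 5351 fell (29.4%). Over probe sets, 15411 rose and 12942 fell in the knockout, so 54.4% of those that passed the test rose. That share was 49.8% after cyclic loess and 50.3% after quantile normalization, and 79.4% when arrays were centred on equal medians of 9939 expressed autosomal probe sets, a shift of 0.68 in every log2 difference. Those medians were 9.78 and 9.75 in knockout spermatocytes and 9.05 and 9.13 in knockout spermatids, against 9.73 on both wild type spermatocyte arrays and 9.36 and 9.35 in wild type spermatids. The step down was deeper in the knockout, and the sign of a small change depended on the scaling. The newly expressed, strengthened, lost and carried over classes below require a change of 4-fold or more. Counts of genes that rose or fell in the gene lists have no fold limit, so the scaling also bears on them. Those counts stand beside the 41.6% and 31.1% over all genes.

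**Figure D1:**
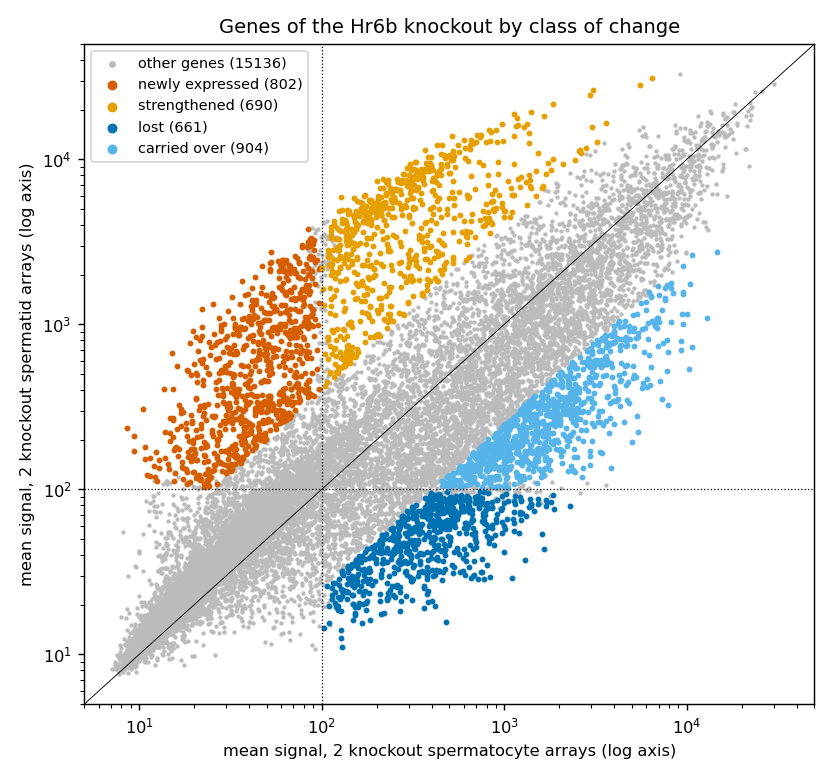
Mean signal of each gene on the 2 knockout spermatocyte arrays (horizontal, log scale) and the 2 knockout spermatid arrays (vertical, log scale), with 802 newly expressed, 690 strengthened, 661 lost and 904 carried over genes in colour and dotted lines at a signal of 100. Newly expressed genes lie left of the vertical line and above the horizontal one, lost genes lie in the opposite corner, and carried over genes lie to the right with spermatid signals that stay above 100.

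Genes of large change were divided by whether their signal reached 100, the limit used here for calling a gene expressed. The study used the same value to leave out probes of low signal, and here it was applied to both arrays of a group. A gene was newly expressed when both knockout spermatocyte arrays were under 100, both knockout spermatid arrays were at 100 or more, and the rise was at least 4-fold. By this rule 802 genes were newly expressed in knockout spermatids, with a median rise of 11.4-fold and a median spermatid signal of 439 (range 104 to 3794). All 802 also rose in wild type, where 653 met the same rule, which is 81.4% of the knockout class and 70.1% of the 932 genes of the wild type class. With a limit of 50 in place of 100 the class held 493 genes, and with arrays centred on equal medians it held 1234.

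The largest rise of a newly expressed gene belonged to Trim42, a member of the tripartite motif family of presumed ubiquitin ligases, with signals of 26.5 and 17.4 in knockout spermatocytes and 1189 and 1276 in knockout spermatids (log2 difference 5.84, SE 0.24, adjusted p = 1.3e-08). Pdilt, a testis-specific protein disulfide isomerase relative needed for fertile sperm, went from 58.8 and 46.9 to 2700 and 2777 (log2 difference 5.70). The X-linked genes Cldn34c4, of the claudin family, and Samt3 reached 1687 and 1976 and 2128 and 2369, from under 50 on every spermatocyte array. Dnajb7, a DnaJ-type co-chaperone, had the highest spermatid signal of the class, 3710 and 3879 from 69.3 and 99.2. Also among the 10 of greatest rise were the uncharacterised 1700126A01Rik (log2 difference 5.73), 1700013H16Rik (5.53), 2610528A11Rik (5.53) and 4930564C03Rik (5.51), all newly expressed. For each gene named here the spermatid arrays stood far above the spermatocyte arrays in both genotypes. Eqtn, which encodes equatorin of the acrosome, rose from 88.6 and 80.1 to 3112 and 3179, and Sgms2, a sphingomyelin synthase, from 98.1 and 76.0 to 3267 and 3447. Suv39h2, a testis-enriched histone methyltransferase, rose from 52.5 and 45.0 to 638 and 674 (log2 difference 3.75).

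A further 690 genes were already expressed in knockout spermatocytes and rose at least 4-fold, here called strengthened. Their median rise was 13.8-fold in the knockout and 17.7-fold in wild type, and the median spermatid signal was 4135. All 690 rose in wild type as well, where 424 fell in the same class. Cfap97d1, named as a protein of cilia and flagella, led them with 143 and 113 in knockout spermatocytes and 5352 and 6403 in knockout spermatids (log2 difference 5.52, SE 0.25). Tbc1d21, which is needed for the sperm tail, went from 141 and 107 to 4709 and 5005. Ccin, which encodes calicin of the sperm head cytoskeleton, went from 169 and 102 to 4262 and 4018, and Izumo1, the sperm protein that binds the egg, from 153 and 144 to 4713 and 4508. Their wild type spermatocyte arrays were at 100 and 46.2 for Ccin and at 152 and 90.5 for Izumo1. Genes at the border of the classes were therefore placed by small differences in the spermatocyte signal, and with a limit of 50 the strengthened class held 1044 genes and with 200 it held 406.

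CREM activates spermatid genes through the cyclic AMP response element, of which TGACGTCA is the full palindrome. Promoter windows of RefSeq (build GRCm38.p6, 250 bases before to 50 after each start) were found for 650 of the newly expressed, 566 of the strengthened, 524 of the lost and 747 of the carried over genes. The palindrome was held by 2.07% of windows of newly expressed genes, 3.65% of strengthened, 4.04% of lost and 3.38% of carried over genes, against 2.49% of all 18109 windows of measured genes and 1.79% of all 32851 windows in the table. Shown are 6 examples, from 4 strengthened, 1 newly expressed and 1 lost gene, each with the palindrome in capitals and up to 30 bases on either side, 5′ to 3′ on the gene's strand.
Ccin: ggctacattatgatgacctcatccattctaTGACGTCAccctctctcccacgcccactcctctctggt
Izumo1: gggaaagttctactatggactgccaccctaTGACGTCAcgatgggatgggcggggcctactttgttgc
Spag4: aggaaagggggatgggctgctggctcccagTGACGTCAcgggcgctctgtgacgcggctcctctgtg
Kif17: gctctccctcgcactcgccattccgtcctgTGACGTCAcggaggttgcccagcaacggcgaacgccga
Suv39h2: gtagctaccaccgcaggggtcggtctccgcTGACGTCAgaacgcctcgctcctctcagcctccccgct
Flcn: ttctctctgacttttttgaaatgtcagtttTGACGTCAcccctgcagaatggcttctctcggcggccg
The stretches lie at chr4:43983424-43983491 (plus strand, 50 bases before the start), chr7:45621685-45621752 (plus, 96 before), chr2:156065146-156065212 (plus, 37 before), chr4:138262135-138262202 (plus, 86 before), chr2:3475034-3475101 (minus, 85 before) and chr11:59810051-59810118 (minus, 49 before). Spag4, a nuclear envelope protein tied to the sperm tail, rose from 267 and 210 to 6519 and 6119, and Kif17, the kinesin that moves the CREM coactivator ACT in spermatids, rose from 226 and 214 to 4355 and 4221. Flcn, the folliculin gene, fell from 1207 and 1242 to 59.1 and 83.0, so the same 8 letters stood before genes of opposite course. The shorter TGACG, which is part of the palindrome and was counted on both strands like all motifs, was in 21.0% of newly expressed, 28.2% of strengthened, 33.1% of lost and 36.2% of carried over windows, against 26.5% of all windows of measured genes. TAACNG, a core bound by the meiotic factor A-MYB, was in 22%, 22%, 16.6% and 21.9% in the same order, against 20.4%. GTTGCCA, a short site of RFX factors, was in 6.22%, 6.05%, 2.10% and 3.70%, against 4.21%. These shares are descriptions of letters in a window and no test was made of them.

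**Figure D2:**
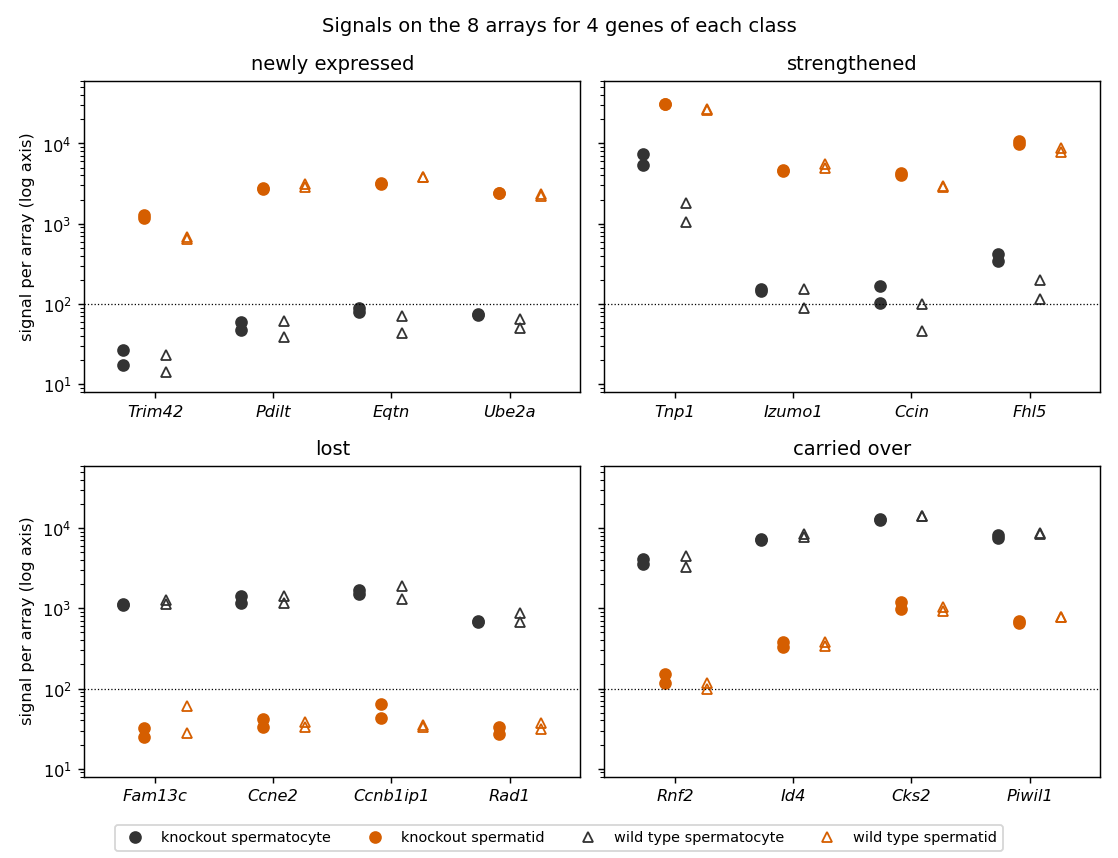
Signal (log scale) on each of the 8 arrays for 16 genes, 4 newly expressed (Trim42, Pdilt, Eqtn, Ube2a), 4 strengthened (Tnp1, Izumo1, Ccin, Fhl5), 4 lost (Fam13c, Ccne2, Ccnb1ip1, Rad1) and 4 carried over (Rnf2, Id4, Cks2, Piwil1), with 1 point for each array and groups side by side. In every panel the spermatid arrays of both genotypes lie apart from the spermatocyte arrays, and the Tnp1 panel shows knockout spermatocytes at 7475 and 5363 above wild type spermatocytes at 1813 and 1053.

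Of the genes that fell at least 4-fold, 661 were lost, with 100 or more on both knockout spermatocyte arrays and under 100 on both knockout spermatid arrays, and 904 were carried over, with 100 or more still left on both knockout spermatid arrays. The lost genes kept a median of 13.9% of their spermatocyte signal (15.3% in wild type) and went from a median of 381 to 51.0. Carried over genes were stronger to begin with, with a median of 1592 in knockout spermatocytes and 241 in knockout spermatids, and kept a median of 16.8% (quartiles 12.6% and 21.2%) against 20.9% in wild type. All 661 lost and all 904 carried over genes fell in wild type too. The name carried over describes a residual signal and not its origin. The fractions were enriched and not sorted, and the part of spermatocytes left in the spermatid fraction was not tested. Both classes depended on scaling and on the limit. The lost class held 284 genes with arrays centred on equal medians and 314 with a limit of 50, and the carried over class held 507 genes after cyclic loess, 483 with equal medians and 502 with a limit of 200.

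The deepest falls were of Fam13c, at 1096 and 1118 in knockout spermatocytes and 25.1 and 32.6 in knockout spermatids (log2 difference -5.28, SE 0.29, adjusted p = 7.66e-08), and of the zinc finger gene Zfp389, at 1605 and 1692 and then 47.0 and 39.7. Ccne2, cyclin E2, which drives DNA replication with CDK2 and is needed in male meiosis, fell from 1171 and 1435 to 32.9 and 41.7 (log2 difference -5.13, SE 0.17). Ccnb1ip1, the meiotic crossover factor HEI10, fell from 1526 and 1702 to 43.3 and 63.6 (log2 difference -4.94, SE 0.20). For these 4 genes the knockout spermatids kept 2.58%, 2.62%, 2.85% and 3.26% of the spermatocyte signal. The zinc finger genes Zik1 and Zfp770 and the BTB gene Kbtbd6 were among the 10 of greatest fall, with log2 differences of -4.93, -4.76 and -4.86, and so were the uncharacterised 4921524J17Rik (-5.08) and 1700040D17Rik (-4.81).

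Among carried over genes the greatest fall was that of Rnf2, which encodes RING1B of the Polycomb complex that ubiquitylates histone H2A, from 3515 and 4145 to 119 and 151 (log2 difference -4.83, SE 0.18, adjusted p = 8.48e-09). Its probe sets disagreed, since another fell alike (-4.74), whereas a weaker one rose from a mean of 86.9 to 242 (1.45). Fbxo3, an F-box protein of ubiquitin ligases, fell from 4839 and 5138 to 181 and 206, and Id4, the inhibitor of differentiation expressed in spermatogenic cells, from 7176 and 7378 to 327 and 384. Sec23a, of the coat of transport vesicles, Zup1 and Taf2, of the basal transcription factor TFIID, kept 4.45%, 4.74% and 4.85% of their spermatocyte signal. The uncharacterised 4921525O09Rik and 4930579G24Rik had log2 differences of -4.61 and -4.60. At the other end stood genes with a large residual signal. Stmn1, which encodes the tubulin-binding stathmin, still had 2611 and 2912 in knockout spermatids after 14521 and 14750 in knockout spermatocytes, and Rbbp4, a histone-binding subunit of chromatin complexes, had 2132 and 2382 after 9228 and 9718. H2az1, a histone H2A variant, had 1491 and 1908 after 6701 and 7208. A residue of 1000 or more remained for 39 of the 904 genes. None of the 904 lay on the X chromosome, but few X-linked genes had the spermatocyte signal that the class needs. On the knockout spermatocyte arrays 11.51% and 11.99% of X-linked genes had 100 or more, against 50.02% and 49.98% of autosomal genes.

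**Figure D3:**
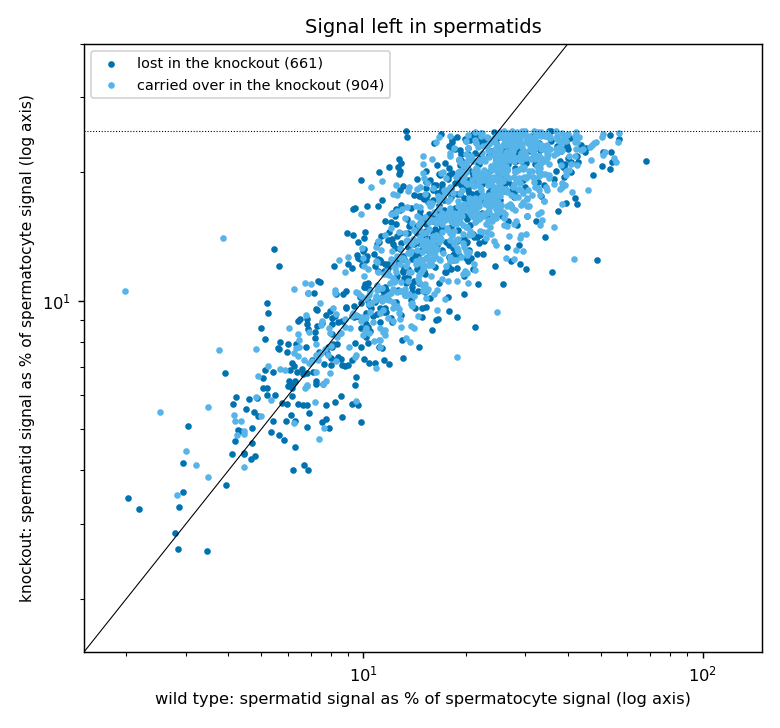
Percent of the spermatocyte signal left in spermatids, wild type (horizontal, log scale) against knockout (vertical, log scale), for the 661 lost and 904 carried over genes, with the line of equality and a dotted line at 25%, the limit used to choose them in the knockout. Points crowd along the line and more of the carried over genes lie below it than above it, with medians of 16.8% for knockout and 20.9% for wild type cells.

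Genes of meiotic prophase fell on balance in the knockout, with exceptions among the cohesins. Of 25 measured genes of the synaptonemal complex and meiotic cohesin, 15 fell, 7 rose and 3 did not pass the test (median log2 difference -1.65, against 0.21 over all genes). Sgo2a, the shugoshin that protects centromeric cohesin, fell from 2397 and 2577 to 147 and 168, and Terb2, of the complex that ties telomeres to the nuclear envelope, from 1196 and 1059 to 80.5 and 90.2. Majin of the same complex fell from 1484 and 1487 to 89.2 and 103, and these last values, either side of 100, kept it out of both the lost and the carried over class. Sycp3, of the axial element, fell from 7369 and 9214 to 1859 and 2307, which left 25.1%, while Sycp1, of the transverse filaments, had 3564 and 5075 and then 3377 and 3500 and did not pass the test (log2 difference -0.31, adjusted p = 0.189). The arrays of the 2 stages stood far apart for Sycp3 and near each other for Sycp1. The cohesin subunit genes Rec8, Smc3 and Rad21 rose, Rec8 from 74.5 and 68.1 to 1393 and 1434, Smc3 from 182 and 206 to 2066 and 2285, and Rad21 from 170 and 142 to 1939 and 2086. Another Rad21 probe set fell (-1.98).

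Of 26 measured genes of meiotic recombination 16 fell and 5 rose (median -0.76), whereas with arrays centred on equal medians 10 fell and 10 rose (median -0.09). Mlh3, of the mismatch repair pair that resolves crossovers, fell from 1331 and 1402 to 77.7 and 78.6 (log2 difference -4.13, SE 0.13). Spo11, the enzyme that makes meiotic double-strand breaks, fell from 4348 and 4532 to 748 and 888 and was carried over. Against the trend Tex15, needed for meiotic repair and for piRNA silencing, rose from 163 and 148 to 2584 and 2570 (log2 difference 4.05). Atm, the kinase that answers double-strand breaks, fell from 157 and 153 to 23.0 and 30.3. Of 21 genes of the XY body and DNA damage signalling 16 fell and 2 rose (median -1.55). Rad1, of the 9-1-1 clamp, fell from 667 and 704 to 26.8 and 33.5, and its partner gene Rad9b from 851 and 935 to 102 and 106. Topbp1, which activates the kinase ATR on unsynapsed axes, fell from 2880 and 3128 to 208 and 294. The Atr transcript itself fell from 9351 and 9436 to 1059 and 1249, which left 12.2% of the signal, and Cbx1, the heterochromatin protein HP1 beta, kept 9.58%. Scml2, an X-linked Polycomb-type gene, was one of the 2 that rose, from 59.8 and 72.4 to 419 and 459. The arrays of the 2 stages did not overlap for any gene of these lists named here.

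The genes of the meiotic divisions were split. Of 43 measured, 21 fell and 13 rose, and the median of -0.33 turned to 0.35 with arrays centred on equal medians. Cdk2 fell from 3574 and 3682 to 235 and 284, Mad2l1 of the spindle checkpoint from 1287 and 1455 to 138 and 148, and Cks2, the CDK subunit needed for the first division, from 12754 and 13006 to 984 and 1196. All 3 were carried over. Bub1b and Cdc20, of the checkpoint and the anaphase-promoting complex, fell less, from 3203 and 3190 to 918 and 949 and from 9806 and 9866 to 3693 and 4513. Some kinases and motors of the division rose, Plk1 from 540 and 483 to 2083 and 1939, Wee1 from 256 and 234 to 948 and 1137 and Kif2c from 932 and 805 to 4664 and 5384. For Wee1 and Kif2c another probe set fell (-1.64 and -2.41).

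Transcription factors of spermatids and of the CREM network changed in both directions: 15 of 37 rose, 13 fell and 9 did not pass the test, shares near the 41.6% and 31.1% over all genes, with a median of 0.04 that became -0.22 when all probe sets of a gene were averaged. Fhl5, which encodes the CREM coactivator ACT, rose from 422 and 339 to 9829 and 10884 (log2 difference 4.77, SE 0.22, adjusted p = 2.69e-08). Sox5 rose from 231 and 219 to 6213 and 6241, Rfx1 was newly expressed at 936 and 826 after 45.5 and 46.7, and the basic helix-loop-helix gene Spz1 went from 810 and 662 to 13574 and 13634. Each of these 4 had spermatid arrays far above the spermatocyte arrays. Crem rose on its strongest probe set, from 2430 and 2319 to 5118 and 5452, and fell on a pair of weaker ones (-2.26 and -2.13), so the gene had no single direction. Nr2c2, the orphan receptor TR4, fell from 5045 and 5242 to 487 and 494, and Atf4 from 2617 and 2721 to 330 and 333. Creb1 fell from 541 and 567 to 96.0 and 104, and Rfx4 from 2193 and 2263 to 351 and 481.

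Sperm chromatin packaging genes rose, with 16 of 24 higher, 5 lower and a median of 1.56 (2.23 in wild type). Their spermatocyte signal was high in the knockout to start with. Tnp1, transition protein 1, had 7475 and 5363 in knockout spermatocytes and 30827 and 31225 in knockout spermatids (log2 difference 2.29, SE 0.23), while wild type went from 1813 and 1053 to 27205 and 26421 (4.28). Prm1, protamine 1, had 10539 and 7739 and then 32476 and 33039, and Prm2 had 6593 and 4538 and then 28302 and 27900. Tnp2 went from 3650 and 2246 to 23170 and 26137. For all 4 the knockout spermatocyte arrays lay above the wild type ones (log2 differences 1.91 to 2.42 between genotypes, adjusted p = 0.00205 to 0.00321) and the spermatids did not pass that test (0.20 to 0.45, adjusted p = 0.275 to 0.614), and the knockout spermatocyte arrays differed from each other, with replicate 1 above replicate 2. These 4 genes are also in the list of round spermatid markers, whose sum was higher on the knockout spermatocyte arrays, as given above. Cdyl, a chromodomain acetyltransferase-like protein, rose from 256 and 216 to 6408 and 7000, the histone variant H2bl1 from 378 and 243 to 7127 and 7813, and Hmgb4 from 1342 and 1011 to 17256 and 18142. Sirt1, Rnf8, the ubiquitin ligase that acts on histones before their removal, and Hmgb2 fell, to 8.62%, 12.5% and 14.5% of their spermatocyte signal, and were carried over.

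Of 55 genes of the acrosome and egg binding, 38 rose, 29 of them at least 4-fold, and 5 fell (median 2.39). Adam6a, a fertility gene of the ADAM family, was newly expressed at 3099 and 3503 after 87.0 and 84.9, and Spam1, the sperm hyaluronidase, at 1817 and 2079 after 68.5 and 58.9. Spaca7 went from 104 and 87.5 to 3732 and 3783 and Spaca1, of the acrosomal membrane, from 350 and 374 to 7255 and 6892. Acr, which encodes acrosin and is transcribed from mid-prophase, rose little, from 3112 and 2658 to 5263 and 4304 (log2 difference 0.73, SE 0.14). The fall of Gopc, a Golgi protein needed to form the acrosome, was from 1499 and 1469 to 151 and 176, and that of Smap2 from 487 and 446 to 113 and 109, and both were carried over.

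Of 34 genes of the fibrous sheath and outer dense fibres 23 rose, 17 of them at least 4-fold, and 6 fell (median 1.70). Odf3, named for the outer dense fibres, rose from 380 and 356 to 11761 and 11045 and Akap3, a scaffold of the fibrous sheath, from 816 and 839 to 14758 and 15171. Akap4, the X-linked main protein of the sheath, rose from 1388 and 999 to 15909 and 16177, and Odf1 from 2108 and 1609 to 22088 and 21450. None of the 34 fell by 4-fold. The 66 genes of the axoneme and intraflagellar transport were more even: 30 fell and 20 rose, and the median of -0.23 turned to 0.27 after cyclic loess and 0.45 with arrays centred on equal medians. Ift80 and Ift20, of the transport particles, fell from 3836 and 4051 to 316 and 367 and from 1117 and 1103 to 216 and 320. Bbs1 and Bbs5, both of the BBSome that carries ciliary cargo, moved apart, Bbs1 from 1157 and 1278 to 102 and 124 and Bbs5 from 653 and 672 to 4390 and 4968. Tekt4, a tektin of the tail, rose from 1175 and 1076 to 9595 and 9225, and Dnah9, an axonemal dynein heavy chain, was newly expressed at 358 and 333 after a mean of 58.3.

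Of 33 genes of sperm ion transport 15 rose, 12 of them at least 4-fold, 1 fell and 17 did not pass the test. Over all genes 41.6% rose, 8.98% rose at least 4-fold and 31.1% fell. The share that rose was thus near that over all genes, as was the median (0.26 against 0.21). Calr3, a testis chaperone of the endoplasmic reticulum, was newly expressed at 2439 and 2788 after 73.1 and 69.8, and Catsper3, a pore subunit of the sperm calcium channel, rose from 128 and 86.0 to 3332 and 3527. Efcab9, the calcium sensor of that channel, rose from 281 and 277 to 8154 and 8097. The gene that fell was Slc9a8, from 370 and 340 to 108 and 121, with another probe set that rose (1.04). Among 33 genes of sperm energy metabolism 19 rose and 10 fell (median 0.52). Aldoart2, a retrogene-derived aldolase, rose from 250 and 200 to 6249 and 5971, and Pgk2, the germ cell phosphoglycerate kinase, from 1675 and 1398 to 10828 and 11114. Acsbg2, a long-chain acyl-CoA synthetase of the testis, rose from 157 and 152 to 4027 and 4181. The testis lactate dehydrogenase Ldhc had 25943 and 25803 and then 25833 and 25884, a log2 difference that did not pass the test (adjusted p = 0.995), although it did with equal medians (0.68). Cyct, the testis cytochrome c, fell from 7397 and 7877 to 2050 and 2326, and Idh3a, of the citric acid cycle, from 1997 and 1989 to 287 and 353.

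Of 18 somatic glycolytic isozymes 9 fell and 6 rose, and the median of -0.34 turned to 0.34 with arrays centred on equal medians. Eno3 fell from 1973 and 2077 to 424 and 440, while Pkm rose from 306 and 350 to 2321 and 2235. The X-linked Pgk1, whose role Pgk2 takes over in meiosis, was newly expressed at 423 and 490 after 80.5 and 89.4. Of 35 spermatid kinases and phosphatases 20 rose and 9 fell (median 0.55). The X-linked phosphatase gene Dusp21 was newly expressed at 2044 and 2598 after 61.9 and 55.7, Dusp13 rose from 246 and 216 to 7976 and 7092 and Tssk4, a testis-specific serine kinase, from 175 and 135 to 5026 and 4726. Stk31, a germ cell protein with a tudor domain, fell from 4507 and 4792 to 370 and 485.

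The PIWI pathway makes pachytene piRNAs in spermatocytes, and its proteins gather in germ granules. Of its 28 measured genes 20 fell, 12 of them at least 4-fold, and 3 rose (median -1.43, and -1.30 in wild type). Piwil1 (MIWI) fell from 7611 and 8133 to 698 and 658 (log2 difference -3.54, SE 0.11, adjusted p = 3.82e-09) and Piwil2 (MILI) from 5442 and 5850 to 373 and 447. Tdrd5, of the germ granule, fell from 4615 and 4777 to 318 and 380. These 3 kept 8.61%, 7.23% and 7.41% of their signal, and 9 genes of the list were in the carried over class. Ago2, which binds microRNA, fell from 761 and 947 to 82.2 and 85.8. Kif17, given above, was the only gene of the list that rose at least 4-fold. Translational control of stored messages was represented by a list in which 28 of 45 genes fell and 10 rose (median -0.97), or 22 and 18 with equal medians (median -0.29). Papolg, a poly(A) polymerase, fell from 1088 and 1183 to 50.2 and 62.3, Paip1, which binds the poly(A)-binding protein, from 758 and 749 to 39.9 and 35.9, and Cpeb2, of the cytoplasmic polyadenylation factors, from 1553 and 2140 to 87.5 and 96.5. Cstf2, an X-linked polyadenylation factor, was newly expressed at 2250 and 2410 after 79.1 and 84.7, and Fmr1, also X-linked, at 161 and 201 after 47.1 and 39.1.

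The X chromosome moved differently from the autosomes. Of 617 X-linked genes 375 rose (60.8%) and 43 fell (6.97%) in the knockout, against 40.9% and 32.1% of 17404 autosomal genes. The share of X-linked genes with a signal of 100 or more was 11.51% and 11.99% on the knockout spermatocyte arrays and 31.4% and 31.1% on the knockout spermatid arrays, while the autosomal share went from 50.02% and 49.98% to 51.4% and 51.7%. In wild type the X share went from 10.2% and 10.9% to 29.3% and 28.4%. Newly expressed genes made up 15.2% of X-linked genes (94 genes) and 3.98% of autosomal genes, strengthened genes 3.89% and 3.82%, lost genes 0.81% (5 genes) and 3.75%, and carried over genes none and 5.18%. These are shares of all genes of a chromosome, while the strengthened, lost and carried over classes need 100 or more in knockout spermatocytes. Since fewer X-linked than autosomal genes had that signal, the shares do not compare genes of like starting level. Of the 94 newly expressed X-linked genes 84 met the same rule in wild type. All 94 rose in wild type.

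The X-linked genes newly expressed in knockout spermatids included general functions. Lamp2, a lysosomal membrane protein, went from 24.3 and 18.6 to 818 and 780 (log2 difference 5.23, SE 0.15, adjusted p = 3.51e-09), and Psmd10, the proteasome chaperone gankyrin, from 42.9 and 36.1 to 966 and 1122. Cul4b, a cullin scaffold of ubiquitin ligases, went from 84.5 and 89.6 to 2226 and 2783, while its weaker probe set fell (-1.46). The deubiquitinase Usp9x rose from 42.8 and 51.6 to 696 and 840, the ubiquitin ligase Huwe1 from 43.4 and 39.6 to 592 and 610, and Med12, of the Mediator complex, from 32.0 and 39.3 to 482 and 516. Among the 43 X-linked genes that fell were Ndufa1, a subunit of respiratory complex I, which was at 1873 and 2014 in knockout spermatocytes and at 615 and 680 in knockout spermatids, and Tsx, which fell from 164 and 201 to 31.2 and 26.5. All 9 measured Y-linked genes rose, and 5 were newly expressed. Eif2s3y, a translation initiation factor gene, went from 24.4 and 30.5 to 570 and 684, Uba1y, a ubiquitin-activating enzyme gene, from 65.2 and 53.6 to 889 and 1051, and Zfy2, a zinc finger gene with a part in meiosis, from 47.4 and 37.2 to 338 and 396.

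**Figure D4:**
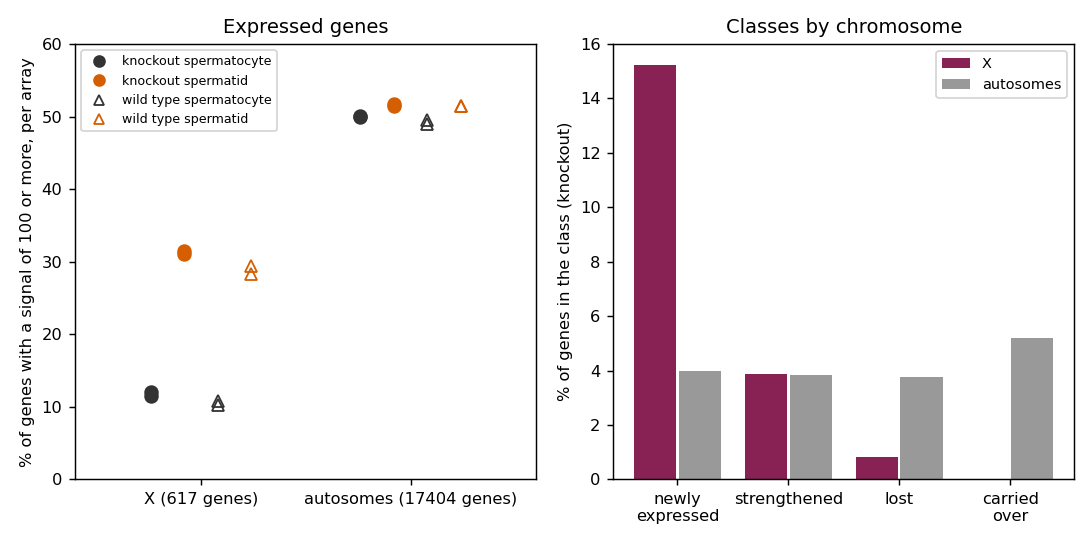
Left, percent of X-linked (617) and autosomal (17404) genes with a signal of 100 or more on each of the 8 arrays; right, percent of X-linked and autosomal genes in each class of the knockout transition. The X share rises from 11.51% and 11.99% in knockout spermatocytes to 31.4% and 31.1% in knockout spermatids while the autosomal share stays near its starting level, and 15.2% of X-linked against 3.98% of autosomal genes are newly expressed.

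HR6B works with ubiquitin ligases and in a larger family of conjugating enzymes. Of 24 measured genes for HR6B and its partners in ubiquitylation 14 fell and 7 rose, and the median of -0.56 turned to 0.12 with arrays centred on equal medians. Rnf20, a ligase that ubiquitylates histone H2B with HR6 enzymes, fell from 620 and 721 to 36.2 and 51.0, and Shprh, a ligase of the damage tolerance pathway, from 418 and 337 to 31.8 and 25.6. Ube2a, given above, and the deubiquitinase Usp44, from 326 and 300 to 3922 and 4302, were among those that rose at least 4-fold. Among 30 ubiquitin-conjugating enzymes 14 fell and 10 rose, and the median of -0.21 turned to 0.18 after cyclic loess and 0.47 with equal medians. Ube2e2 fell from 347 and 378 to 19.6 and 30.7, Ube2t, of the Fanconi pathway, from 5027 and 5089 to 469 and 475, and Ube2j1, of the endoplasmic reticulum and needed for spermiogenesis, rose from 2723 and 2499 to 11537 and 11230 on one probe set and fell on the other (-1.68).

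Of 42 proteasome subunits and regulators 27 fell and 7 rose (median -0.74), whereas with equal medians 17 fell and 17 rose (median -0.06). Psmd14, the lid deubiquitinase, fell from 4475 and 4193 to 731 and 774 and Psma2, of the core, from 4157 and 4087 to 780 and 880. The activator gene Psme3 rose from 482 and 395 to 3163 and 3368 and the inhibitor gene Psmf1 from 1744 and 1631 to 7935 and 8318, and both had another probe set that fell (-1.57 for Psme3 and -2.32 for Psmf1). Of 48 cytosolic ribosomal protein genes 24 fell, 1 rose and 23 did not pass the test, and the median of -0.34 turned to 0.34 with equal medians. Rpl10a fell from 9394 and 9644 to 1420 and 1637 and Rps3 from 6255 and 6239 to 1853 and 1748, although a weak Rps3 probe set rose (1.09). Of 22 genes of cholesterol synthesis 11 fell and 6 rose, and the median of -0.30 turned to 0.38 with equal medians. Cyp51, which makes meiosis-activating sterols, rose from 114 and 112 to 1454 and 1395, and Insig1, a brake on the pathway, fell from 92.7 and 99.5 to 20.7 and 22.8. Among 39 heat shock proteins and chaperones 18 fell and 16 rose, and the median of -0.11 turned to 0.29 after cyclic loess and 0.56 with equal medians. At least 4-fold, 9 of the 39 rose and 2 fell. Canx, calnexin, fell from 3606 and 4104 to 517 and 652 and Hspa8, the constitutive HSC70, from 3347 and 3720 to 793 and 825.

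**Figure D5:**
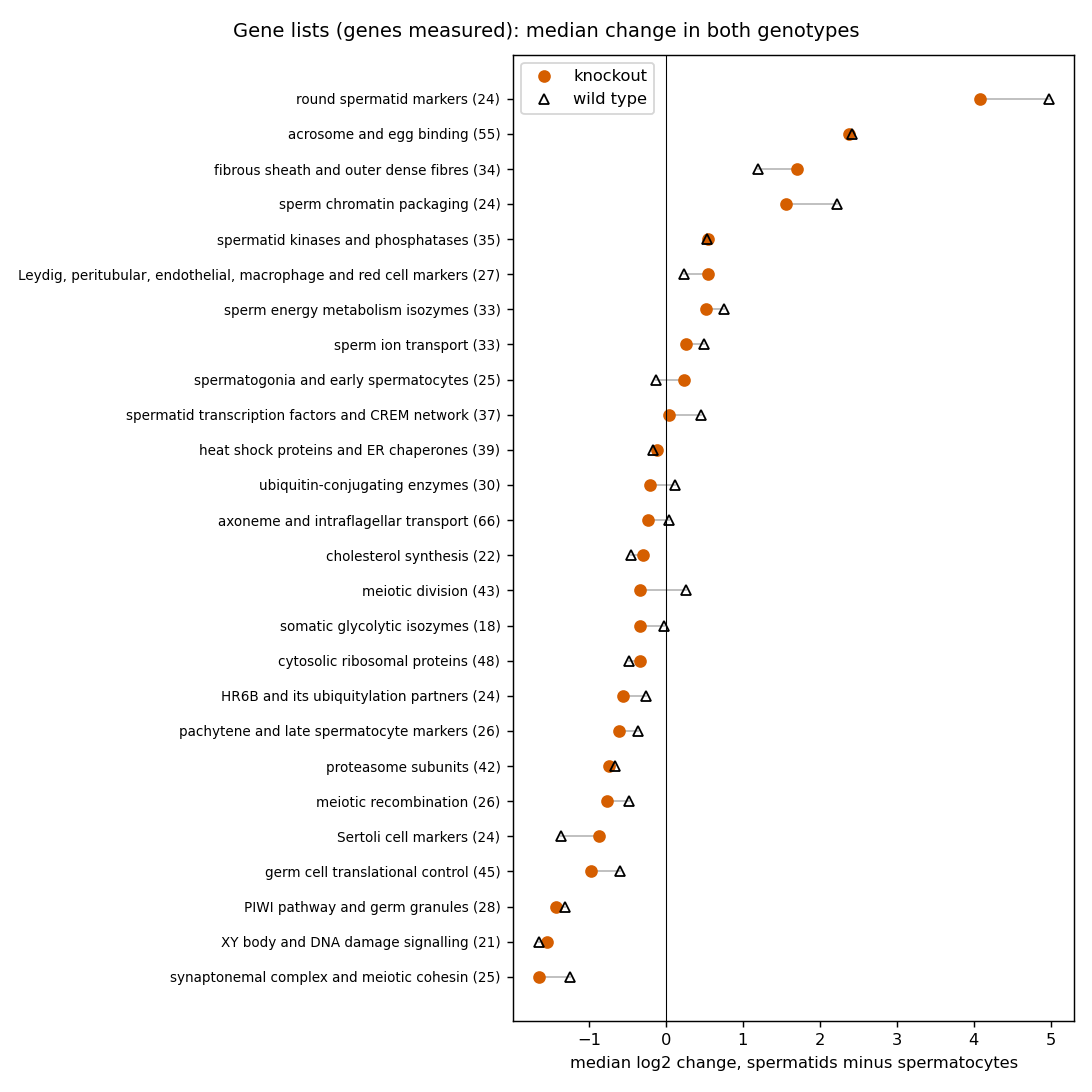
Median log2 difference, spermatid minus spermatocyte, of the 26 gene lists in the knockout and in wild type, with the number of genes measured. Round spermatid markers (4.08 in knockout and 4.98 in wild type cells) and the acrosome list (2.39) lie farthest to the right and the synaptonemal complex list (-1.65) lies farthest to the left in the knockout, and the medians of 9 lists with negative values, among them meiotic division, axoneme and ribosomal proteins, change sign with arrays centred on equal medians.

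All 24 round spermatid markers rose in the knockout, 22 of them at least 4-fold, with a median of 4.08. Of 26 markers of pachytene and late spermatocytes 15 fell and 6 rose, and the median of -0.60 turned to 0.07 with equal medians. The summed signal was 138779 and 143507 in knockout spermatocytes and 107916 and 111950 in knockout spermatids. Thus transcripts used as spermatocyte markers were still strong in the spermatid fraction. The sum includes Ldhc, which did not pass the test, and Pgk2, which rose. It cannot tell transcripts left over from transcripts still made. Of 25 genes of spermatogonia and early spermatocytes 12 rose and 7 fell, against 41.6% and 31.1% of all genes, and the median of 0.23, close to the 0.21 over all genes, became -0.61 over the 11 that passed a filter on low signals. At least 4-fold, 2 of the 25 rose and 5 fell. Tex101 of that list, a surface protein of germ cells, fell from 8885 and 9613 to 679 and 718.

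Somatic cells of the testis were also represented. Of 24 Sertoli cell markers 13 fell and 6 rose in the knockout (median -0.87), or 11 and 11 with equal medians (median -0.19), and their summed signal was 8260 and 10649 in knockout spermatocytes and 2017 and 1978 in knockout spermatids, and the wild type arrays had 8222 and 10804 and then 1271 and 1382. Of these 24 markers 8 fell at least 4-fold and none rose as much. Aard fell from 1098 and 1683 to 132 and 155, Defb19, a defensin gene, from 739 and 815 to 108 and 110, Cst12, a cystatin gene, from 1002 and 1287 to 82.3 and 114, and Gja1, the gap junction protein connexin 43, from 146 and 186 to 18.2 and 13.0. Of 27 markers of Leydig, peritubular, endothelial, macrophage and red cells 17 rose and 2 fell (median 0.54), and their summed signal was 1382 and 1511 in knockout spermatocytes and 2065 and 2016 in knockout spermatids. The rises included macrophage genes, Adgre1 from 46.5 and 44.4 to 215 and 217 and C1qb, of the complement, from 22.6 and 23.0 to 172 and 217. In wild type the sum was 1654 and 1581 and then 1896 and 1928. The part of these markers in the germ cell changes was not tested.

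Some genes had no single direction. Of 9010 genes with more than 1 probe set, 300 (3.33%) had one that rose and another that fell in the knockout. For this count each of them also needed a log2 difference of at least 1 in size, so smaller opposed changes are left out. By the same rule 313 genes did so in wild type and 207 in both. The shared genes are 69% of those in the knockout and 66.1% of those in wild type. The values given for Rnf2, Rad21, Wee1, Kif2c, Crem, Slc9a8, Cul4b, Ube2j1, Psme3, Psmf1 and Rps3 are therefore those of the named or strongest probe set and not of every transcript of the gene.

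Most changes were shared by the genotypes. Of the probe sets that passed the test in the knockout, 20738 also passed in the same direction in wild type, which is 73.1% of the former and 86.4% of the latter, and 98 passed in opposite directions. The change itself differed between genotypes for 1223 genes, with 384 (2.11% of all tested) in which the knockout change lay above the wild type one and 839 (4.61%) in which it lay below. Over probe sets the former made up 31.7% of 2073, but 47.9% after cyclic loess, 50.6% after quantile normalization and 89.4% with arrays centred on equal medians. The count also rested on single arrays: it was 228 without knockout spermatocyte replicate 1, 414 without replicate 2, 364 without knockout spermatid replicate 1, 401 without wild type spermatid replicate 1 and 630 without its replicate 2.

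By class, the 802 newly expressed genes of the knockout held 98 whose change was more positive than in wild type and 72 whose change was more negative, the 690 strengthened genes 15 and 88, the 661 lost genes 5 and 43 and the 904 carried over genes 6 and 85. Since the classes were chosen on the knockout values, the 4-fold limit leans these counts toward larger knockout changes, and the signal limits can lean them otherwise. Chosen on wild type values instead, the 932 newly expressed genes held 29 and 136, the 517 strengthened genes 5 and 73, the 582 lost genes 26 and 5 and the 715 carried over genes 5 and 18. A smaller rise of strengthened genes was thus found with either choice, and the direction for newly expressed and lost genes followed the choice. Wild type carried over genes kept a median of 14.4% in the knockout, against 16.8%.

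Genes whose rise was greater in the knockout included Pcdh17, a protocadherin, which went from 16.2 and 11.5 to 136 and 171 in the knockout and from 18.6 and 16.5 to 34.2 and 29.6 in wild type (difference of the changes 2.63, SE 0.26, adjusted p = 0.00343). Sptlc3, a subunit of serine palmitoyltransferase, went from 36.3 and 39.3 to 410 and 464, and to 97.8 and 87.5 in wild type spermatids. Nptx2, a pentraxin, and Vgll2, a transcriptional cofactor, reached 109 and 144 and 186 and 287 in knockout spermatids but 16.2 and 20.7 and 46.2 and 46.7 in wild type spermatids. The groups did not overlap for these 4 genes. On the negative side Gsdmc2, a gasdermin, rose from 13.7 and 14 to 26.8 and 28.4 in the knockout and reached 171 and 160 in wild type spermatids (difference -2.73, SE 0.15, adjusted p = 0.000334). Epgn, an epidermal growth factor relative, had 78.5 and 76.2 in knockout spermatids and 268 and 243 in wild type, and Parp8 had 58.7 and 40.7 against 253 and 266. Kansl1l, related to a subunit of a histone acetyltransferase complex, fell from 510 and 562 to 58.2 and 76.3 in the knockout and from 491 and 625 to 293 and 248 in wild type. For these genes the spermatid arrays differed between genotypes, whereas for Tnp1, Tnp2, Prm1 and Prm2 the spermatocyte arrays did.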

How the data were processed

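The authors hybridised RNA of 8 samples to Affymetrix Mouse Genome 430 2.0 arrays and deposited log2 values per probe set that they had background-corrected, normalized and summarised with RMA in R. Versions are not given in the sources used here. RMA brings the arrays to a common distribution, so a change of total RNA per cell between stages cannot be seen. Values were used as deposited, and signal is their antilog.

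Group means were fitted to all 8 arrays with limma 3.58.1 in R 4.3.3 (4 residual and 5.85 prior degrees of freedom), as the study's methods did with limma, and p-values were adjusted by Benjamini-Hochberg over 45037 probe sets at a threshold of 0.05. The knockout transition, the wild type transition and the difference between them (interaction) were tested. The number of arrays, 2 in each group, limits the precision. In data simulated for the knockout transition on 45037 probe sets, 68 of 100 changes of 1 and 99 of 100 changes of 2 on the log2 scale were recovered, with 5 false calls. No other probe set was moved in the simulation, whereas 63% passed the test in the real data. Recovery and the number of false calls there can therefore differ.

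GEO's platform annotation gave 1 gene for 34945 probe sets, several for 932 and none for 9160. Names were updated through gene identifiers where RefSeq held them (34741 probe sets). Expressed means a signal of 100 or more. Tables were handled with Python 3.11.15, pandas 2.3.3 and numpy 2.4.6 and plotted with matplotlib 3.10.9. Alternatives were cyclic loess, quantile normalization, centring on equal medians, a filter on low signals, the knockout arrays alone, the replicate number as a block, each array left out, limits of 50 and 200 and the mean over a gene's probe sets. Same-numbered arrays deviated together at r = -0.13 to 0.14, so the numbers were not taken to pair the samples.

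The comparison, the gene lists and the rules were chosen with earlier results of these data known. Named genes are the 10 of greatest change in each direction, the 8 of greatest change in the newly expressed, lost and carried over classes, the 8 of greatest interaction in each direction, members of each list at its extremes, and Ube2b and Ube2a. Other genes, among them those named for a known role, for a large residue or for a motif, were chosen after their values were seen. Of 30 lists 4 are not described (retrogenes, both X-linked lists and the Y-linked list), because some members lie on other chromosomes than the list's name says. The annotated chromosome was used instead.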

Additional observations from a re-analysis of the deposited data

Results flagged for a closer look

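The differences here are the knockout change minus the wild type change on the log2 scale for genes named in the text, each past an adjusted p of 0.05 in limma's interaction test. Of 24 genes of sperm chromatin 7 had a more negative change in the knockout and none a more positive one (5 and 0 after cyclic loess). The counts were 7 and 0 of 55 for the acrosome (1 and 2 after cyclic loess). They were 4 and 1 of 34 for the fibrous sheath and outer dense fibres (1 and 1 after cyclic loess). Over all genes 4.61% had a more negative and 2.11% a more positive change. Those named in the text that rose less are Tnp1 (-1.99), Tnp2 (-1.97), Prm1 (-1.72), Prm2 (-1.90), Tsga8 (-1.38), Spam1 (-1.88), Akap4 (-1.41) and Odf1 (-1.39). For Tnp1 the spermatid arrays were close (30827 and 31225 in knockout, 27205 and 26421 in wild type cells) and the spermatocyte arrays were apart (7475 and 5363 against 1813 and 1053), whereas Spam1 was lower in knockout spermatids (1817 and 2079 against 2975 and 2905) and higher in knockout spermatocytes (68.5 and 58.9 against 34.7 and 19.7). Odf3b, named for the outer dense fibres, rose more in the knockout (1.57), from 140 and 125 to 947 and 899 against 135 and 131 to 311 and 314 in wild type.

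Of 24 Sertoli cell markers 4 had a more positive change in the knockout, among them Aard (2.41), Defb19 (1.86) and Cst12 (1.71), as did 2 of 27 markers of other somatic cells, the macrophage genes Adgre1 (0.86) and C1qb (1.32). The share over all genes was 2.11%. The summed Sertoli marker signal was 2017 and 1978 in knockout spermatids and 1271 and 1382 in wild type spermatids. Of 617 X-linked genes 27 (4.38%) had a more positive and 10 (1.62%) a more negative change in the knockout, against 2.04% and 4.72% of autosomal genes. These shares were not counted under other scalings. The X-linked genes named in the text that rose more in the knockout were Med12 (1.15), Huwe1 (0.92), Pgk1 (0.84) and Scml2 (0.95). In Med12 the spermatids were at 482 and 516 against 289 and 353, and the spermatocytes at 32.0 and 39.3 against 50.5 and 50.6. The division genes Bub1b (-0.97) and Cdc20 (-0.90) had a more negative change in the knockout, while the mitochondrial chaperone gene Hspd1 differed by 1.55, rising in the knockout and falling in wild type (309 and 367 to 490 and 546, against 431 and 542 to 247 and 262).

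The greatest differences in the positive direction were those of Pcdh17 (2.63), Aard, Nptx2 (2.23), Vgll2 (2.09), Tmcc2 (2.07), Sptlc3 (2.01), Fabp5 (2.00) and Atp6v0b (1.92), and in the negative direction those of Gsdmc2 (-2.73), Epgn (-2.0), Tnp1, Parp8 (-1.98), Kansl1l (-1.97), Tnp2, Arhgef39 (-1.96) and Fam187a (-1.91). Kbtbd6, among the deepest falls of the knockout, fell less than in wild type (0.77). Of these 35 genes all passed the test after quantile normalization and with equal medians, and 31 did after cyclic loess, where Tnp2, Akap4, Odf1 and Cdc20 did not (adjusted p = 0.0519 to 0.0749). Without knockout spermatocyte replicate 1 only 16 passed, among them Pcdh17, Nptx2, Vgll2, Sptlc3, Gsdmc2, Epgn, Parp8, Kansl1l, Aard, Defb19, Tsga8, Odf3b and Hspd1, and none of Tnp1, Tnp2, Prm1, Prm2, Spam1, Akap4 or the X-linked Med12, Huwe1, Pgk1 and Scml2 did. Without knockout spermatid replicate 1 or wild type spermatid replicate 1, 18 and 17 of the 35 passed.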

How the results depend on the processing

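Most of the 160 named changes from spermatocyte to spermatid in the knockout were picked for their size or as extremes of a list. Their signs therefore say little about smaller changes. Of the 160 named changes, none that passed the test changed sign under any alternative. Of those that did not pass, Sycp1 (-0.31) was 0.17 after cyclic loess and 0.37 with equal medians, and Ldhc (-0.0008) was 0.11 and 0.68, the latter past the threshold (adjusted p = 0.000169), and -0.0047 to 0.0031 leaving out each array in turn. The threshold was otherwise crossed only by Ube2b (0.85 after cyclic loess, 0.63 after quantile normalization, 0.96 with equal medians, and adjusted p = 0.046 with a filter on low signals) and Sycp1 (-0.56, adjusted p = 0.0446, without knockout spermatocyte replicate 1). Counts of probe sets moved with the scaling. Cyclic loess gave 1197 interactions, 624 of them lower, and 507 carried over genes, and quantile normalization gave 777 lower interactions. Centring on equal medians gave 31918 higher and 8287 lower in the knockout, 37209 called in wild type, 6676 interactions (5970 higher and 706 lower), and 1234 newly expressed, 284 lost and 483 carried over genes. The filter on low signals, which tested 17597 probe sets, gave 15303 called in the knockout, 5484 of them higher, and 14898 in wild type. A limit of 50 gave 493 newly expressed, 1044 strengthened and 314 lost genes, and a limit of 200 gave 406 strengthened and 502 carried over genes. Leaving out each array in turn gave 228 to 2197 interactions, 100 to 674 higher and 128 to 1523 lower, the lowest each time without knockout spermatocyte replicate 1 and the highest without wild type spermatocyte replicate 1. It gave 23546 to 28724 called in the knockout, 802 to 871 newly expressed, 686 to 738 strengthened, 661 to 786 lost and 902 to 978 carried over genes.

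Medians of lists that changed sign were those of the axoneme (0.27 after cyclic loess, 0.45 with equal medians), heat shock proteins (0.29 and 0.56) and ubiquitin-conjugating enzymes (0.18 and 0.47). With equal medians alone they were HR6B and its partners (0.12), cholesterol synthesis (0.38), ribosomal proteins (0.34), meiotic division (0.35), pachytene markers (0.0747) and somatic glycolytic isozymes (0.34). The median of spermatogonial genes was -0.61 with the filter, and that of transcription factors -0.22 over all probe sets. With the replicate number as a block 28028 probe sets were called in the knockout and 1725 interactions, the 4 classes held as many genes as before, and no named change crossed the threshold. The interaction has no value from the knockout arrays alone. The causes were not tested.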
